A study of Mus musculus with 8 samples.

Results

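Amino acids cross cell membranes on carrier proteins encoded by several gene families. The families Slc1, Slc3, Slc6, Slc7, Slc36, Slc38 and Slc43 were followed here in mouse liver as it regrew after partial hepatectomy. Members were chosen by symbol alone: every gene row named Slc1a, Slc3a, Slc6a, Slc7a, Slc36a, Slc38a or Slc43a followed by a number. This gave 58 of the 34465 genes, namely 7 of Slc1, 2 of Slc3, 17 of Slc6, 14 of Slc7, 4 of Slc36, 11 of Slc38 and 3 of Slc43.

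The study asked what loss of b-PDGFR (gene Pdgfrb), a receptor for platelet-derived growth factor, does to liver regeneration. RNA of whole liver was sequenced in 8 libraries, 2 in each of 4 groups. All mice were b-PDGFR fl/fl, of the strain 129S4/SvJae/FVB and 3 months of age, so the Cre-negative controls carried the floxed alleles too. The groups were GFAP-Cre neg after a sham operation, GFAP-Cre pos after a sham operation, GFAP-Cre neg at 72 h after partial hepatectomy and GFAP-Cre pos at the same time; the titles give Cre-positive mice as Cre +/-. The labels describe the deletion as specific to hepatic stellate cells, the cells in which the GFAP promoter is meant to drive Cre. Whether the 2 libraries of a group came from separate animals is not given, so p-values measure only the spread between these libraries.

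Each of these families has its own chemistry. Slc1 carriers take up glutamate and aspartate or exchange small neutral amino acids, and Slc38 carriers move glutamine, alanine and other neutral amino acids with sodium. Slc7 holds the carriers of arginine and lysine, and the light chains of exchangers that reach the cell surface only when paired with a heavy chain of Slc3. Slc6 carriers bring in GABA, taurine, betaine, creatine, glycine, proline and monoamines. Slc36 holds carriers that couple amino acids to protons, often at the lysosome, and Slc43 carriers move large neutral amino acids or nucleobases. In liver, hepatocytes take up alanine and glutamine for glucose and urea synthesis, and the hepatocytes around the central vein take up glutamate and make glutamine from it.

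The values are a normalized signal per gene, as the authors deposited it. The read depth behind them is unknown, so no counting interval is given, and the signal is not stated to be scaled by gene length, so levels are compared between libraries and not between genes. A total of 41 of the 58 members reached a mean signal of 1 over the 8 libraries and were tested. They were 5 of Slc1, 2 of Slc3, 8 of Slc6, 10 of Slc7, 3 of Slc36, 10 of Slc38 and 3 of Slc43. The other 17 were not tested, among them Slc1a6, Slc1a7, Slc36a3, Slc38a8, Slc6a2, Slc6a3, Slc6a5, Slc6a11, Slc6a15, Slc6a17, Slc6a18, Slc6a19, Slc7a9, Slc7a12, Slc7a13 and Slc7a14. The highest value of the 17 in any library was 3.70, and Slc38a8, Slc6a5, Slc6a11, Slc7a12 and Slc7a13 were listed at 0 in all 8 libraries.

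Some facts of the libraries touch what follows. Signal summed to between 8617660 and 11583800 per library, and replicates lay further apart after hepatectomy: the median ratio between the replicates of a group, over the tested genes, was 1.17 and 1.16 in the sham groups, 1.38 in the Cre-negative and 1.67 in the Cre-positive hepatectomy group. Cre-positive hepatectomy replicate 2 stood apart at low GC, with a median log2 difference from sham of -1.80 for the 467 genes under 40% GC. That median was 0.18 and -0.04 for replicates 1 and 2 of Cre-negative hepatectomy, and -0.06 for Cre-positive hepatectomy replicate 1. For the 3989 genes at 55% GC or more, Cre-positive hepatectomy replicate 2 was not alone, at 0.65. Replicates 1 and 2 of Cre-negative hepatectomy had 0.60 and 0.38 there, against -0.12 for Cre-positive hepatectomy replicate 1. Pdgfrb, the targeted gene, had signals of 49.8 and 63.3 in Cre-negative sham, 59.4 and 46.0 in Cre-positive sham, then 122.6 and 70.5 in Cre-negative livers after hepatectomy and 63.1 and 99.9 in Cre-positive ones. Its level did not separate the genotypes (log2 difference -0.16, averaged over operations, limma adjusted p = 0.850), and a gene total does not separate the exons that Cre removes from the rest. The tissue label was checked against hepatocyte markers, whose summed signal over the 7 of 8 measured was 386632 to 428893 in sham; Serpina1c among them was listed at 0 in 2 of the 8 libraries. Stellate cell markers (9 of 9 measured, none called) summed to 3699 to 4939 in sham and 2285 to 2741 after hepatectomy. Ecm1, Dcn and Reln gave most of these sums. Of the 9, 2 had a positive estimate after hepatectomy, Pdgfrb (log2 fold change 0.66) and Des (0.41).

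After hepatectomy, 2 transporter genes rose and 1 fell in the test averaged over both genotypes. Slc1a4 and Slc6a8 rose, and Slc1a2 fell. The test was limma on log2(signal + 1) with Benjamini-Hochberg adjustment over all genes and a threshold of 0.05, and it called 3 of the 41 members (7.32%) against 738 of 16443 genes (4.49%). Among all genes 3.64% rose and 0.845% fell. At an unadjusted p under 0.05 there were 16 members, 8 higher and 8 lower, or 39.0% against 23.8% of all genes. The median log2 fold change was 0.13 over the members and 0.12 over all genes. The all-gene median was -0.01 after median-of-ratios scaling and -0.03 after quantile normalization. Within Cre-negative livers 1 member rose and 0 fell, against 1.01% and 0.103% of all genes (1.11% in all). Within Cre-positive livers 1 rose and 0 fell, against 0.845% and 0.0973% (0.943% in all); in both it was Slc1a4. Fewer cells of a type and less RNA per cell cannot be told apart in whole liver.

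**Figure D1:**
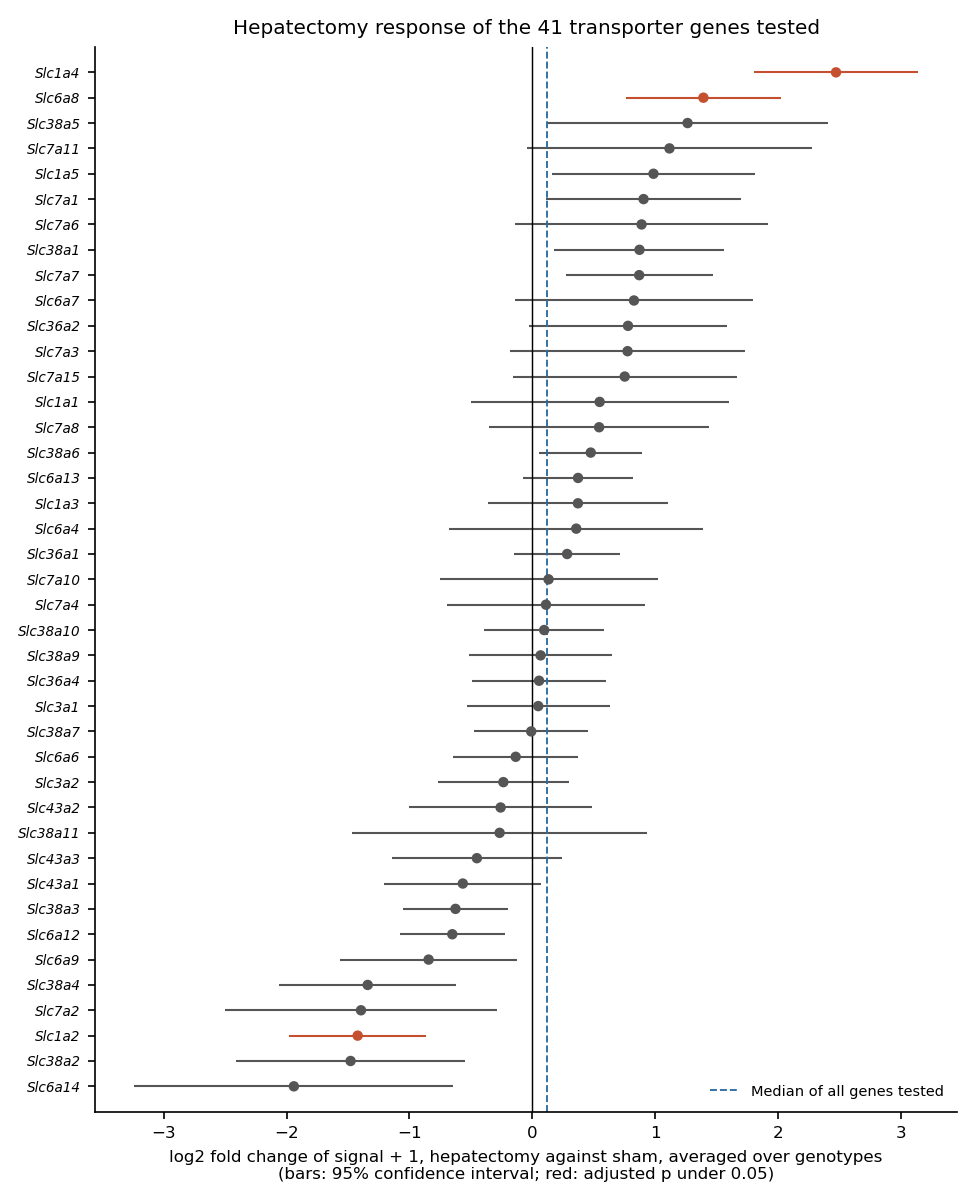
Log2 fold change of signal + 1 for each of the 41 tested transporter genes, hepatectomy against sham averaged over genotypes (x axis), with genes ordered by that value (y axis). Points are model estimates and bars 95% confidence intervals from 8 libraries; the 3 genes in red passed the adjusted threshold, and the dashed line at 0.12 is the median of all genes.

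The windows just before the start of transcription are shown for Slc1a4 and Slc1a2, the genes with the smallest adjusted p in each direction, for Slc7a11, a known target of the amino acid response, and for Slc36a1, whose hepatectomy libraries lay on opposite sides of sham in the genotypes. They are the 250 bases upstream of the start, from RefSeq on GRCm38.p6, written 5′ to 3′ on the gene's strand. Slc1a4 lies at chr11:20332714-20332963 on the minus strand, Slc1a2 at chr2:102706188-102706437 on the plus strand, Slc7a11 at chr3:50443614-50443863 on the minus strand and Slc36a1 at chr11:55204090-55204339 on the plus strand. Capitals mark TGATGNAA, the core bound by ATF4 in the amino acid response, or CACGTG, the E-box bound by Myc, on either strand.
Slc1a4: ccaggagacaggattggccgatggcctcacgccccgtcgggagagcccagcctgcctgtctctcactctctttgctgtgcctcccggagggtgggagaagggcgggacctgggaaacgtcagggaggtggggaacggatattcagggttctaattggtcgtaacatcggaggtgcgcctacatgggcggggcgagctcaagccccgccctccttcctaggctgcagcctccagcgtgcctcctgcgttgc
Slc1a2: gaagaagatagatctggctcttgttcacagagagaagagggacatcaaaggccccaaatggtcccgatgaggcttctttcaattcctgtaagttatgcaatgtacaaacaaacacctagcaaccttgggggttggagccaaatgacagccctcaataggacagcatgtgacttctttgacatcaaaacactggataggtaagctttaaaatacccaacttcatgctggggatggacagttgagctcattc
Slc7a11: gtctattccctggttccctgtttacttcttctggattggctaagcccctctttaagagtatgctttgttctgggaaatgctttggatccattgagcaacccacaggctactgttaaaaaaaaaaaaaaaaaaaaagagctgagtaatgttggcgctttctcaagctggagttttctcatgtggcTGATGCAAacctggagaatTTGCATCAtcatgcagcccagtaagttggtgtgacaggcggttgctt
Slc36a1: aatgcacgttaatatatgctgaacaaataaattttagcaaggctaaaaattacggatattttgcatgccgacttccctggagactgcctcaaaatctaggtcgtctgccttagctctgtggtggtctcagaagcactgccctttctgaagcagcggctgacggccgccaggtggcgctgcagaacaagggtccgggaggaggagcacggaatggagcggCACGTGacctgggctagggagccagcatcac
TGATGNAA stood at -66 and -47 of Slc7a11, counted from the start of transcription, and CACGTG at -31 of Slc36a1. Neither motif was found in the Slc1a4 and Slc1a2 windows. RefSeq windows were matched by symbol for 41 of the 58 members (62 windows, since a gene can have more than 1 start), a set that is not the 41 tested genes. Slc6a8, which was also called, was among the members without a window, so neither motif could be sought there. TGATGNAA was in 3 member windows, 1 of Slc7a11 and 2 of Slc7a7, and in 3.45% of all 32851 windows. CACGTG was in 8 member windows, those of Slc1a6, Slc1a7, Slc36a1, Slc38a5, Slc38a7, Slc43a1, Slc6a3 and Slc7a14, and in 6.02% of all windows. No member window held both motifs, so no matches overlapped between them. A match describes letters only.

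Slc1a4, which exchanges alanine, serine and cysteine (ASCT1), had the largest response among the members called. Its signal was 7.69 and 8.47 in Cre-negative sham, 10.04 and 8.11 in Cre-positive sham, 45.4 and 50.2 in Cre-negative livers after hepatectomy and 39.8 and 79.8 in Cre-positive ones. Every hepatectomy library lay above every sham library, with means of 53.8 ± 17.8 and 8.58 ± 1.03 (SD, 4 libraries each). The log2 fold change was 2.47 (SE 0.28, limma adjusted p = 0.0064), or 5.54-fold on the scale of signal + 1. It was 2.42 in Cre-negative livers (limma adjusted p = 0.0467) and 2.52 in Cre-positive livers (limma adjusted p = 0.0450). The averaged call held in all 15 alternatives run, with log2 fold changes from 2.07 to 2.72. The within-genotype calls were lost without most single libraries, in 6 of 8 cases for Cre-negative and 7 of 8 for Cre-positive, with adjusted p up to 0.322 and 0.324.

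Slc1a5, the related exchanger of glutamine and other neutral amino acids (ASCT2), had signals of 18.02, 11.02, 17.0 and 16.9 in the sham libraries. After hepatectomy it had 48.2 and 29.3 in Cre-negative livers and 17.2 and 40.9 in Cre-positive livers. The Cre-positive library at 17.2 lay within the sham range, and the log2 fold change of 0.99 (SE 0.35) did not pass (limma adjusted p = 0.160).

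Slc1a2 (GLT-1), which takes up glutamate and aspartate and marks the hepatocytes around the central vein, fell. Its signal was 727 and 524 in Cre-negative sham, 1179 and 1253 in Cre-positive sham, 310 and 213 in Cre-negative livers after hepatectomy and 314 and 522 in Cre-positive ones. The highest hepatectomy library, at 522, was just under the lowest sham library, at 524. The log2 fold change was -1.42 (SE 0.24, limma adjusted p = 0.0229), or 2.68-fold lower. The call was lost without any one of 6 libraries, both of each sham group and both of Cre-negative hepatectomy, where adjusted p was 0.0559 to 0.122, and with no filter on low signal (adjusted p = 0.0605). Glul, which makes glutamine from glutamate in the same hepatocytes, fell with a log2 fold change of -1.42 (limma adjusted p = 0.0045), from 7712 to 8437 in sham to 2098 to 4418 after hepatectomy. Of the other glutamate carriers, Slc1a1 lay between 1.36 and 10.2 and Slc1a3 between 0.845 and 2.70 over the 8 libraries, with limma adjusted p of 0.462 and 0.476.

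Slc6a8, the creatine transporter, rose. Its signal was 22.6 and 27.1 in Cre-negative sham, 33.2 and 19.4 in Cre-positive sham, 74.6 and 55.5 in Cre-negative livers after hepatectomy and 58.7 and 84.9 in Cre-positive ones. All 4 hepatectomy libraries were above all 4 sham libraries, and the log2 fold change was 1.39 (SE 0.27, limma adjusted p = 0.0357), or 2.62-fold. The call was lost without any one of 7 libraries, all but Cre-positive hepatectomy replicate 1 (adjusted p 0.0525 to 0.173), with no filter on low signal (0.0728) and with quantile normalization (0.0629).

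Without Cre-positive hepatectomy replicate 1 the averaged test kept Slc1a2, Slc1a4 and Slc6a8. It also called Slc1a5, Slc6a7, Slc6a12, Slc6a13, Slc7a2, Slc7a7, Slc7a11, Slc36a2, Slc38a2, Slc38a3, Slc38a4 and Slc38a5. That fit called far more of all genes as well, so these calls are not particular to the members. It left replicate 2, the library that stood apart for genes of low GC content, alone in its group. Both limits hold wherever a gene is said below to pass without replicate 1. With all 8 libraries, 2 members had every hepatectomy library above every sham library, Slc1a4 and Slc6a8 (4.88% of the 41, against 11.2% of all genes). Another 5 had every hepatectomy library below every sham library, Slc1a2, Slc38a2, Slc38a3, Slc38a4 and Slc6a12 (12.2% against 6.20% of all genes). Slc1a4, Slc6a8, Slc38a3, Slc38a4 and Slc6a12 kept this separation under median-of-ratios scaling, quantile normalization and removal of the GC trend. Slc1a2 lost it under quantile normalization, and Slc38a2 under quantile normalization and GC removal.

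**Figure D2:**
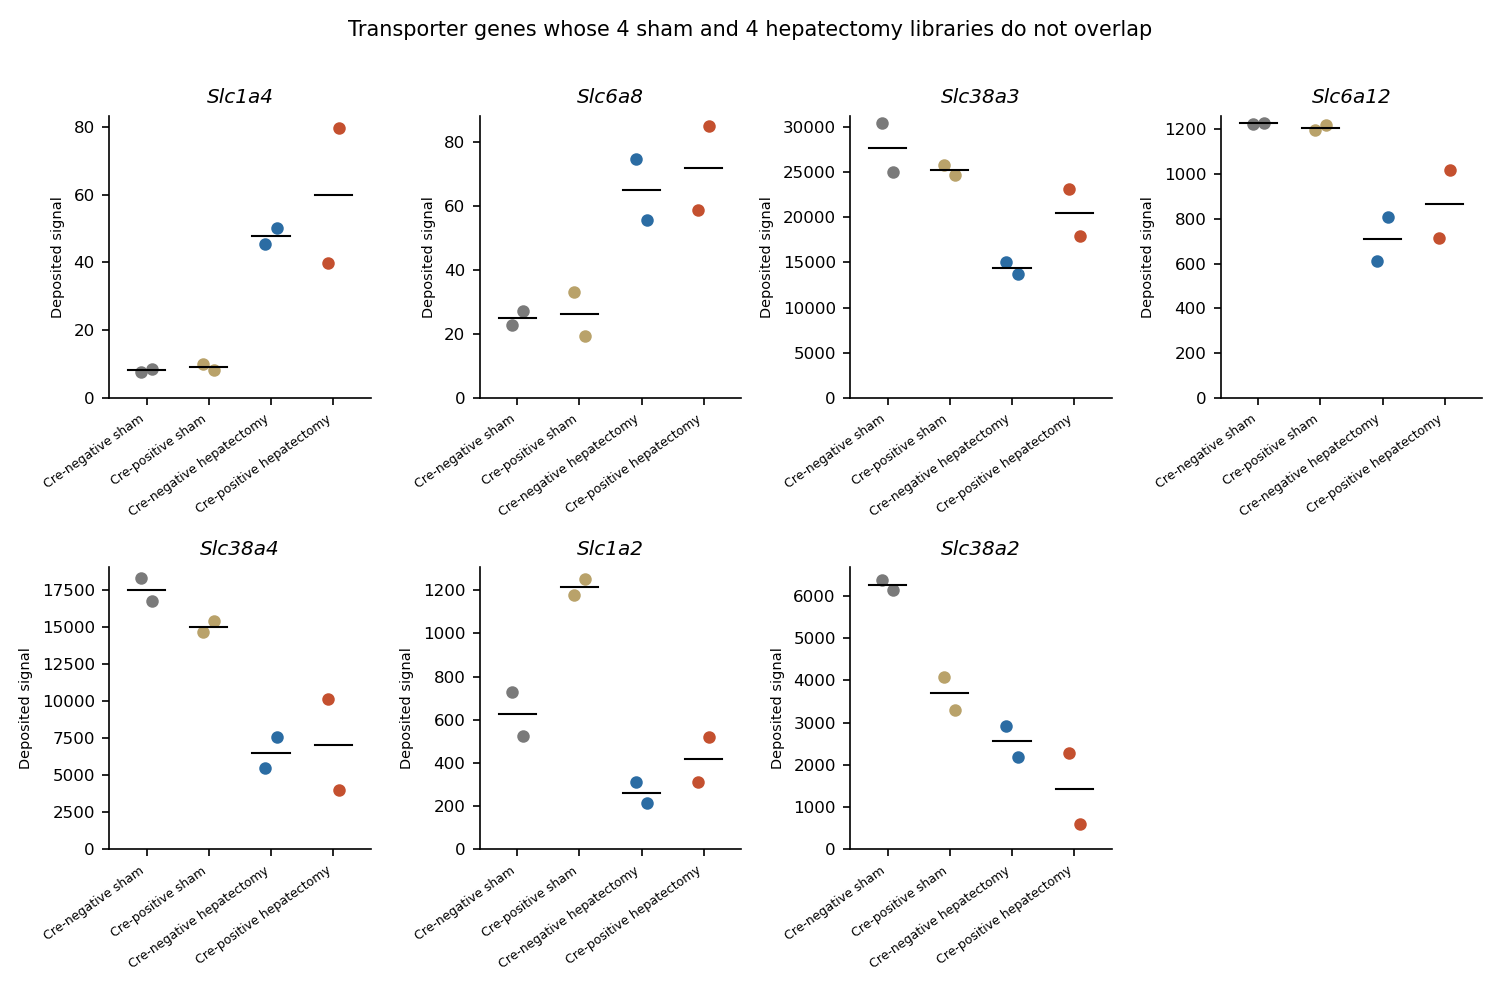
Deposited signal (y axis, linear, from 0) in each library of the 4 groups (x axis) for the 7 transporter genes whose 4 sham and 4 hepatectomy libraries do not overlap; points are libraries and short lines the mean of 2. Slc1a4 and Slc6a8 are higher after hepatectomy and the other 5 lower, with Slc1a2 separated by the narrowest gap, 522 against 524.

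Among the sodium-coupled carriers, 3 Slc38 genes were lower in every hepatectomy library but did not pass the test. Slc38a3 (SNAT3), which moves glutamine in hepatocytes, had 30414 and 25002 in Cre-negative sham, 25824 and 24657 in Cre-positive sham, 15029 and 13734 in Cre-negative livers after hepatectomy and 23108 and 17921 in Cre-positive ones. Its log2 fold change was -0.63 (SE 0.18, limma adjusted p = 0.107), and the Cre-negative hepatectomy libraries were the lowest. Slc38a4 (SNAT4), a carrier of neutral and cationic amino acids known from liver, had 18295, 16715, 14637 and 15392 in the sham libraries, then 5462 and 7602 in Cre-negative livers after hepatectomy and 10144 and 3981 in Cre-positive ones. Its 4 hepatectomy libraries spanned a wide range, all under the sham libraries, and the log2 fold change of -1.34 (SE 0.31) missed the threshold (limma adjusted p = 0.0579). Without Cre-positive hepatectomy replicate 1 both passed, Slc38a3 at -0.72 (adjusted p = 0.0287) and Slc38a4 at -1.68 (adjusted p = 0.0032); Slc38a4 also passed without replicate 2 of that group (-1.003, adjusted p = 0.0389) and with the GC trend removed (-1.12, adjusted p = 0.0234).

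Slc38a2 (SNAT2), an alanine carrier known to be induced when amino acids are scarce, had 6387 and 6150 in Cre-negative sham and 4075 and 3312 in Cre-positive sham. After hepatectomy it had 2924 and 2193 in Cre-negative livers and 2285 and 598 in Cre-positive livers. The value of 598 came from the library with lower signal for genes of low GC content; whether that played a part was not tested apart from the GC adjustment, under which the gene's log2 fold change of -1.13 passed (adjusted p = 0.0282). As deposited the log2 fold change was -1.48 (SE 0.40, limma adjusted p = 0.0889). It was -1.96 without Cre-positive hepatectomy replicate 1 and -0.996 without replicate 2 of that group, and passed in both (adjusted p 0.0020 and 0.0327). The members' summed signal, to which genes of higher signal give most, was 0.545% to 0.652% of all signal in the sham libraries and 0.293% to 0.450% after hepatectomy, so the ranges did not overlap.

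The other tested Slc38 genes did not pass either. Slc38a5 (SNAT5), a glutamine carrier, lay between 0.885 and 2.28 in sham, then at 14.8 and 10.1 in Cre-negative livers after hepatectomy and 0.598 and 5.76 in Cre-positive ones. Cre-negative hepatectomy libraries were high and the Cre-positive ones lay below the sham range and above it. Its log2 fold change was 1.26 (SE 0.49, limma adjusted p = 0.180). Slc38a1 (SNAT1), a glutamine carrier of many dividing cells, had 3.70 to 7.30 in sham, 17.6 and 10.4 in Cre-negative livers after hepatectomy and 6.93 and 6.56 in Cre-positive ones (limma adjusted p = 0.143). Slc38a9, the lysosomal arginine sensor, lay between 58.8 and 121.8 with a log2 fold change of 0.07, and Slc38a7, a lysosomal carrier of glutamine, between 98.0 and 150.7 with -0.01. Slc38a6 had a log2 fold change of 0.48 and Slc38a11 of -0.27, with limma adjusted p of 0.173 and 0.761.

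The carriers of arginine and lysine had estimates of different sign, none of which passed. Slc7a2 (CAT2), the form known from hepatocytes, had 3872 and 4065 in Cre-negative sham, 3140 and 4064 in Cre-positive sham, 1051 and 1789 in Cre-negative livers after hepatectomy and 3272 and 682 in Cre-positive ones. The first Cre-positive hepatectomy library stayed within the sham range and the other 3 lay below it, and the log2 fold change of -1.39 (SE 0.47) did not pass (limma adjusted p = 0.142). Without that library it was -1.96 and passed (adjusted p = 0.0039). Slc7a1 (CAT1), widespread in other tissues, had 4.72, 3.90, 3.86 and 2.49 in sham, then 15.7 and 7.57 in Cre-negative livers after hepatectomy and 4.12 and 6.99 in Cre-positive ones. It was above the sham range in 3 of 4 hepatectomy libraries (log2 fold change 0.90, limma adjusted p = 0.172). Slc7a3 (CAT3) had 0.574 to 1.33 in sham, 10.98 and 3.82 in Cre-negative livers after hepatectomy and 0.0597 and 0.904 in Cre-positive ones (limma adjusted p = 0.285).

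Of the heavy chains, Slc3a2 (CD98), which carries most Slc7 light chains to the surface, had 258, 278, 249 and 241 in sham, then 197, 201, 173 and 326 after hepatectomy. One Cre-positive hepatectomy library was above the sham range and the other 3 below it, and the log2 fold change was -0.24 (SE 0.23, limma adjusted p = 0.531). Slc3a1 (rBAT), the heavy chain of the cystine and dibasic amino acid exchanger, is described with the genotypes. Among the light chains, Slc7a7 (y+LAT1), which exchanges cationic for neutral amino acids, had 21.6, 33.9, 41.7 and 29.6 in sham and 49.1, 37.6, 68.2 and 84.6 after hepatectomy. Only the second Cre-negative library overlapped the sham range (log2 fold change 0.87, SE 0.25, limma adjusted p = 0.108).

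Slc7a7 is also known from macrophages. Beside it, the summed signal of Kupffer cell and macrophage markers (8 measured, none at 0) was 1505 to 2464 in sham. That sum was 2340 and 1708 in Cre-negative livers after hepatectomy and 4060 and 4265 in Cre-positive ones, with no marker of the 8 called. The part of these cells in the signal was not tested. Slc7a11 (xCT), which trades glutamate for cystine, had 2.18, 1.61, 1.81 and 0.505 in sham and 5.75, 4.98, 1.15 and 7.94 after hepatectomy. It was above the sham range in 3 of 4 libraries (log2 fold change 1.12, SE 0.49, limma adjusted p = 0.223). Slc7a6, Slc7a8 and Slc7a10, other light chains, had log2 fold changes of 0.89, 0.54 and 0.13, with limma adjusted p of 0.261, 0.398 and 0.845. Slc7a15 and Slc7a4 had 0.75 and 0.11 (limma adjusted p 0.277 and 0.856).

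In the Slc6 family, Slc6a12 (BGT1), the carrier of the osmolyte betaine and of GABA, was lower in each hepatectomy library. It had 1223 and 1230 in Cre-negative sham, 1197 and 1218 in Cre-positive sham, 613 and 807 in Cre-negative livers after hepatectomy and 715 and 1017 in Cre-positive ones. The mean of the 4 sham libraries was 1217 ± 14.2 (SD), and the log2 fold change was -0.65 (SE 0.18, limma adjusted p = 0.0982). It passed without Cre-positive hepatectomy replicate 1 (-0.52, adjusted p = 0.0353), without replicate 2 of that group (-0.78, adjusted p = 0.0373) and with the GC trend removed (-0.77, adjusted p = 0.0237). Slc6a13 (GAT2), a carrier of GABA and taurine encoded by a related gene, had 1660, 1403, 1447 and 1444 in sham, then 1237 and 1592 in Cre-negative livers after hepatectomy and 2174 and 3187 in Cre-positive ones. Both Cre-positive hepatectomy libraries were above all others (averaged log2 fold change 0.37, limma adjusted p = 0.272), and the gene passed without the first of them (0.51, adjusted p = 0.0453).

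Slc6a9 (GlyT1), the glycine carrier, had 235 to 538 in sham and 130 to 261 after hepatectomy, ranges that overlapped (log2 fold change -0.84, limma adjusted p = 0.163). Slc6a9 is also expressed in red cell precursors, and erythroid markers (6 of 6 measured, 1 of which rose) summed to 3642 to 6305 in sham and 11985, 18363, 6930 and 34192 in the hepatectomy libraries. Most of the sum after hepatectomy was Hba-a1 and Hbb-b1. A positive estimate was seen for 4 of the 6, while Alas2 (log2 fold change -0.86) and Tfrc (-0.26) had a negative one. The part of red cell precursors in Slc6a9 was not tested. Slc6a14 was listed at 0 in 2 hepatectomy libraries, with 1.86 and 0.0446 in the others and 1.30 to 7.69 in sham (limma adjusted p = 0.102). The proline carrier Slc6a7 and the serotonin carrier Slc6a4 had log2 fold changes of 0.83 and 0.36 (limma adjusted p 0.264 and 0.628).

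None of the 3 Slc43 genes passed. Slc43a1 (LAT3), a carrier of large neutral amino acids, had 325, 443, 623 and 283 in sham and 265, 297, 243 and 275 after hepatectomy (log2 fold change -0.57, limma adjusted p = 0.250). Slc43a3, a nucleobase carrier known from endothelium, had 383, 458, 455 and 432 in sham and 400, 161, 448 and 342 after hepatectomy (log2 fold change -0.45, limma adjusted p = 0.369). Its lowest value was in Cre-negative hepatectomy replicate 2, where endothelial markers (8 of 8 measured, none at 0, 2 of which fell) also had their lowest sum, 1635, against 3572 to 4656 in sham and 2729 to 3665 in the other hepatectomy libraries. The part of these cells was not tested. Slc43a2 (LAT4) had a log2 fold change of -0.26 (limma adjusted p = 0.625). Of the Slc36 genes, Slc36a4 had 0.05 and Slc36a2 0.78 (limma adjusted p 0.897 and 0.223).

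By family, the fitted direction after hepatectomy was positive for 9 of 10 tested Slc7 genes (all but Slc7a2, median log2 fold change 0.76), 4 of 5 Slc1 genes and 3 of 3 Slc36 genes. It was positive for 5 of 10 Slc38 genes, 4 of 8 Slc6 genes, 1 of 2 Slc3 genes and 0 of 3 Slc43 genes. These are directions of estimates, most of which did not pass the test. Among all genes a positive estimate was had by 72.8% at a mean signal of 1 to 10 and 61.1% at 10 to 100. It was 47.3% at 100 to 1000 and 37.2% from 1000. The family counts were not matched for signal, so they are not read as traits of the families. Genes low in sham could also pass the signal filter through their hepatectomy libraries, which favours a positive direction.

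The direction of the estimates went with the deposited signal of the gene, among the members and, as deposited, among all genes. The mean was taken over all 8 libraries, so a gene low in sham could reach the filter of 1 through its hepatectomy libraries. Such entry favours a positive estimate, among members and all genes alike. Slc6a7, for example, had 0.234 to 1.37 in sham. After hepatectomy it had 4.95 and 4.08 in Cre-negative livers and 0.0153 and 2.09 in Cre-positive ones. Of the 24 members with a mean signal under 100, 21 had a positive estimate, against 66.2% of all genes in that range. Of the 17 members at 100 or more, 5 did, against 45.5% of all genes. At 1000 or more it was 1 of 6, Slc6a13, against 37.2%. The split was 18 of 24 and 3 of 17 after median-of-ratios scaling (58.9% and 35.5% of all genes) and 20 of 24 and 4 of 17 with the GC trend removed (69.4% and 48.1%). After quantile normalization it was 15 of 24 and 5 of 17, while the shares over all genes were near each other, 48.5% and 47.0%. Of these 24 genes, 14 had their highest value in Cre-negative hepatectomy replicate 1. The same share over all genes under 100 was not computed, so the count is not read as a trait of the members. The number of genes that reached a signal of 1 was 15237 to 15614 in sham, 17398 and 16623 in Cre-negative livers after hepatectomy and 14881 and 16038 in Cre-positive ones. The part of this difference in the values of the 24 genes was not tested.

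**Figure D3:**
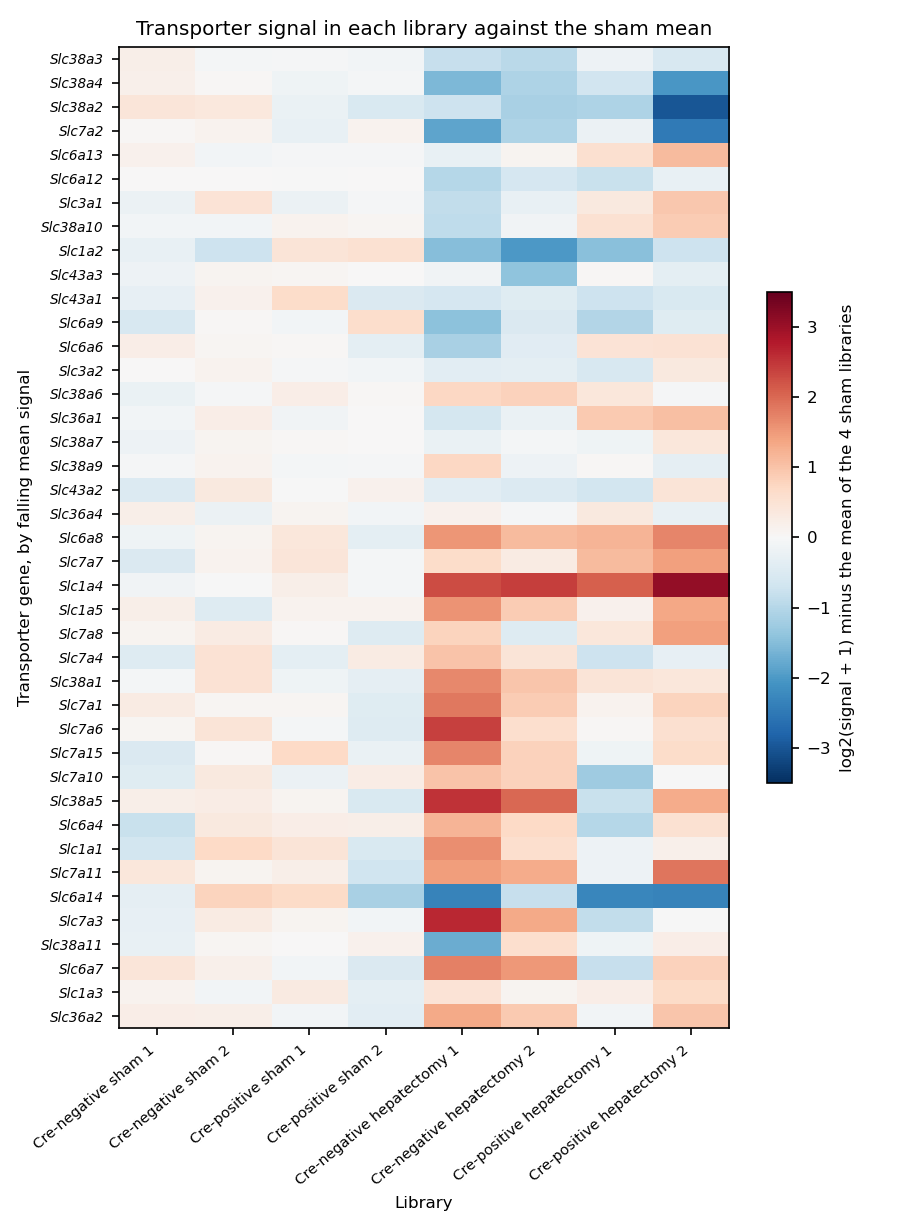
Colour gives log2(signal + 1) minus the mean of the 4 sham libraries, for the 41 tested transporter genes (rows, by falling mean signal) in the 8 libraries (columns). Blue cells, below sham, gather among the top rows and red cells, above sham, among the lower rows of the hepatectomy columns, except Cre-positive replicate 1. In that library low-signal genes such as Slc6a7, Slc38a5 and Slc7a3 lay below sham, and Slc6a13 and Slc3a1 above it. Slc1a4 is red in all 4 hepatectomy columns.

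No member passed the test between genotypes. Cre-positive against Cre-negative livers gave 0 of 41 members after sham operation (0.00608% of all genes called), 0 after hepatectomy (0.0182%), 0 averaged over operations (0.0122%) and 0 for the interaction, the genotype difference in the response to hepatectomy (0.0122%), by limma with adjusted p under 0.05. At an unadjusted p under 0.05 there were 1, 11, 7 and 7 members, or 2.44%, 26.8%, 17.1% and 17.1%, against 0.888%, 18.3%, 8.53% and 8.09% of all genes. The 1 member in sham was Slc1a2, with 727 and 524 in Cre-negative livers and 1179 and 1253 in Cre-positive livers (log2 difference 0.98, SE 0.33, limma adjusted p = 1). The 2 Cre-positive and 2 Cre-negative sham libraries did not overlap for 15 of 41 members (36.6%, against 31.6% of all genes).

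After hepatectomy the 2 Cre-positive and 2 Cre-negative libraries did not overlap for 20 of 41 members (48.8%, against 40.4% of all genes). Cre-positive was higher for 8 (19.5% against 14.2%), Slc1a2, Slc3a1, Slc6a6, Slc6a13, Slc7a7, Slc36a1, Slc38a3 and Slc38a10, and lower for 12 (29.3% against 26.3%). The 12 were Slc1a1, Slc6a4, Slc6a7, Slc7a1, Slc7a3, Slc7a4, Slc7a6, Slc7a10, Slc7a15, Slc38a1, Slc38a5 and Slc38a6. After median-of-ratios scaling the counts became 11 higher and 12 lower (18.9% and 22.4% of all genes), after quantile normalization 11 and 7 (22.4% and 15.8%), and with the GC trend removed 10 and 13 (19.8% and 26.2%). Without Cre-positive hepatectomy replicate 1, the Cre-positive hepatectomy group was replicate 2 alone, the library that stood apart for genes of low GC content. In that fit Slc3a2, Slc6a13, Slc36a1 and Slc38a10 passed as higher in the Cre-positive library, and Slc38a2 and Slc38a6 as lower. Far more of all genes passed in it too, and 1 library carried the difference.

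For 4 members the hepatectomy libraries lay below sham in Cre-negative and above it in Cre-positive livers, with no overlap in either (9.76%, against 6.85% of all genes that moved opposite ways in either order). Slc36a1 (PAT1), a proton-coupled carrier of small neutral amino acids at the lysosome and the cell surface, had 131 and 165 in Cre-negative sham and 92.2 and 120 in Cre-negative hepatectomy. In Cre-positive livers it had 129 and 141 in sham and 269 and 292 after hepatectomy, the highest values of the 8 libraries. The log2 difference between the responses was 1.53 (SE 0.37, 95% confidence interval 0.67 to 2.39), which did not pass (limma adjusted p = 0.455).

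Slc6a6, the taurine carrier, had 312 and 277 in sham and 119 and 200 after hepatectomy in Cre-negative livers, then 273 and 206 in sham and 371 and 376 after hepatectomy in Cre-positive livers. Its Cre-positive hepatectomy libraries were the highest of all and its Cre-negative ones the lowest (log2 difference of responses 1.57, SE 0.43, limma adjusted p = 0.521). Slc3a1 had 792 and 1279 in sham and 508 and 771 after hepatectomy in Cre-negative livers, against 801 and 887 in sham and 1173 and 1785 after hepatectomy in Cre-positive livers (1.46, SE 0.49, limma adjusted p = 0.584). Slc38a10 had 746 and 747 in sham and 427 and 724 after hepatectomy in Cre-negative livers, against 867 and 830 in sham and 1147 and 1475 after hepatectomy in Cre-positive livers (1.04, SE 0.42, limma adjusted p = 0.596). The pattern of no overlap held for Slc36a1 and Slc6a6 under all 3 rescalings, for Slc38a10 under median-of-ratios scaling and GC removal, and for Slc3a1 under median-of-ratios scaling.

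**Figure D4:**
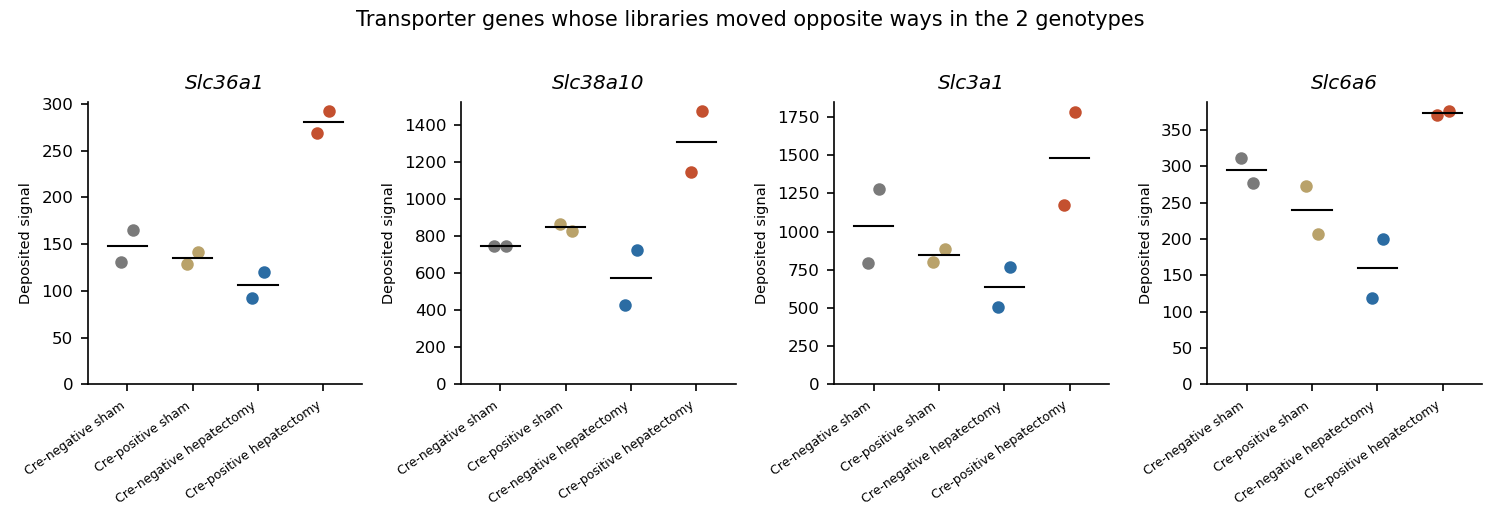
Deposited signal (y axis, linear, from 0) in each library of the 4 groups (x axis) for Slc36a1, Slc38a10, Slc3a1 and Slc6a6; points are libraries and short lines the mean of 2. In each gene the Cre-negative hepatectomy libraries are below, and the Cre-positive hepatectomy libraries above, the sham libraries of their own genotype.

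**Figure D5:**
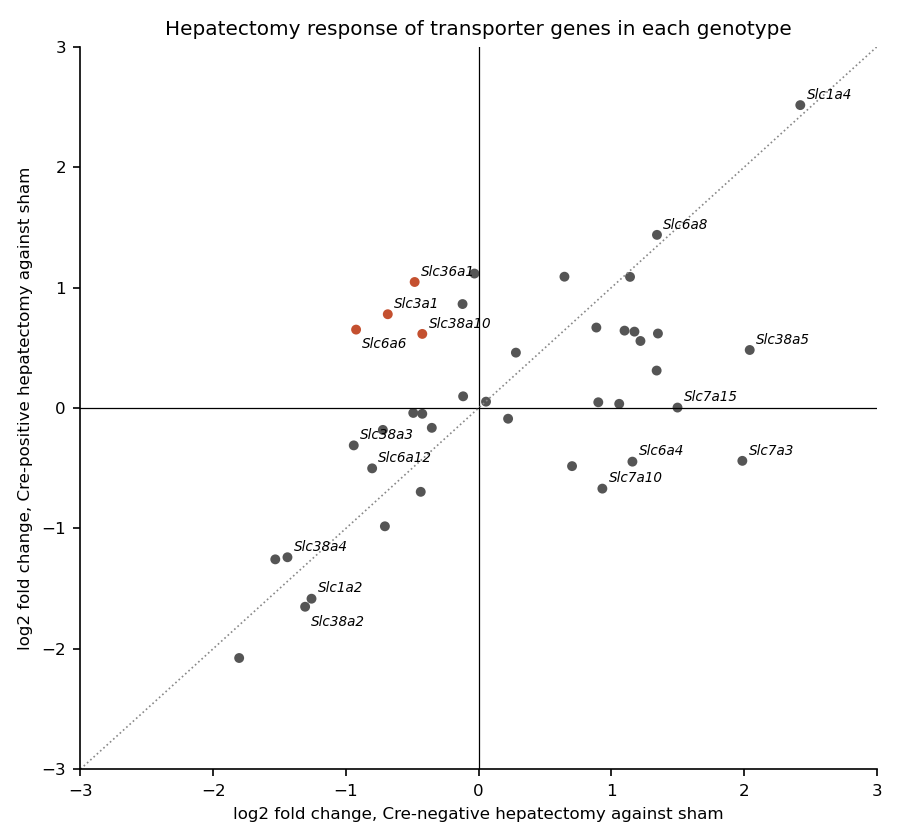
Log2 fold change of hepatectomy against sham in Cre-negative livers (x axis) and in Cre-positive livers (y axis) for the 41 tested transporter genes; the dotted line marks equal responses and red points the 4 genes that moved opposite ways without overlap. Slc1a4 lies at 2.42 and 2.52, near the dotted line, and Slc36a1 at -0.48 and 1.05.

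The isoform values split the gene values and are no independent measurement. Of 263 isoforms of the members, 126 were tested. In the test averaged over genotypes 1 rose and 5 fell after hepatectomy (limma, adjusted over 47375 isoforms, of which 1.72% were called). Slc1a4-001 rose and Slc1a2-201 fell, in the direction of their genes (log2 fold changes 2.38 and -2.05, limma adjusted p 0.0449 and 0.0457). The other 4, Slc6a12-001, Slc6a12-003, Slc6a9-011 and Slc43a3-005, were at 0.329 or less in both Cre-negative hepatectomy libraries and at 11.85 or more in every sham library. Slc6a12-001, for example, had 114, 63.3, 77.6 and 86.5 in sham, 0.162 and 0.0562 in Cre-negative livers after hepatectomy and 54.1 and 82.0 in Cre-positive ones. In Cre-positive livers after hepatectomy the other 3 were also in or near the sham range. Slc6a12-003 had 12.7 and 18.8 (sham 18.4 to 22.2) and Slc6a9-011 16.5 and 20.1 (sham 16.8 to 54.4). Slc43a3-005 had 13.9 and 13.6 (sham 11.9 to 26.5). How an isoform's share was estimated could differ widely between replicates: for Slc7a2-001 and Slc7a2-002 the signals were 3511 and 303 in the first Cre-negative sham library and 2311 and 1739 in the second.

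Genes around the transporters were read from lists of related functions. In the averaged test 3.64% of all genes rose and 0.845% fell. Among amino acid carriers of other families, 0 of 15 tested rose and 1 fell in the averaged test: Slc16a10 (TAT1), which lets aromatic amino acids leave hepatocytes, went from 517, 625, 481 and 491 to 227, 210, 206 and 173 (log2 fold change -1.37, limma adjusted p = 0.0068). Of 7 genes that help transporters reach or leave the membrane none passed; Bsg, a chaperone of lactate carriers, and Sgk1, a kinase that holds carriers at the surface, had log2 fold changes of 0.50 and -0.72 (limma adjusted p 0.177 and 0.0561).

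Of 24 amino acid response genes 4 rose and 0 fell, namely Aldh18a1 and Psat1, which make proline and serine precursors (log2 fold changes 1.86 and 2.20), Psph, the last step of serine synthesis (1.27), and Atf5 (0.84), with limma adjusted p of 0.0181, 0.0295, 0.0298 and 0.0413. A positive estimate was seen for 15 of the 24. Chac1, Cth and Gpt2 had negative ones (-1.50, -0.82 and -0.71, limma adjusted p 0.109, 0.0959 and 0.0745). Summed over the 25 genes measured, the signal of the list was 15675.8 to 19528.7 in sham and 11333.1 to 14978.5 after hepatectomy. No gene of the 7 transporter families is on this list. Of 20 cytosolic aminoacyl-tRNA synthetases 2 rose, Cars (1.08) and Wars (0.83), and 0 fell. Of 23 genes of amino acid sensing by mTORC1 1 rose, Mlst8 (1.17, limma adjusted p = 0.0424), and 0 fell. The shares over all genes were 3.64% and 0.845%, so the mTORC1 count was near the share of all genes that rose.

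Of 15 genes of glutamine and urea metabolism 2 fell, Glul and Oat (-1.22, limma adjusted p = 0.0263), and 0 rose. Of 22 genes of amino acid breakdown 2 fell and 0 rose, among them Tat, which starts tyrosine breakdown (-1.08, limma adjusted p = 0.0356); 1 of the 22 had a positive estimate. Of 8 proliferation genes 7 rose. Among all genes 3.64% rose and 0.845% fell. Beside these, 1 of 7 hepatocyte markers fell, Cyp2e1, an enzyme of the hepatocytes around the central vein (-1.60, limma adjusted p = 0.0108), and the median log2 fold change of the 7 was -0.83 in Cre-negative and 0.21 in Cre-positive livers. Their sums after hepatectomy were 182283 and 286312 in Cre-negative livers and 387917 and 332646 in Cre-positive ones. Without Serpina1c they were 160300, 247065, 387917 and 243869, against 332803 to 418815 in sham, and the genotypes overlapped. The part of these markers' cells in the transporter values was not tested.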

How the data were processed

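Whole mouse liver was measured by RNA-seq (Trizol, column and DNase extraction, TruSeq libraries, HiSeq2000), per the labels' protocols. The submitters' processing notes name TopHat, Cufflinks and the builds mm9 and NCBIM37; neither versions nor the normalization are given in the sources used here. The authors deposited a normalized signal for each gene and isoform, covering 34465 genes and 96792 isoforms. The isoform signal at rank 10000 is 66.6 to 70.0 in each library, and 23.5% to 28.5% of isoform values above 0 recur exactly in another library. Depth is unknown. The design had assumed FPKM, and the same test on log values was kept.

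Groups were taken from the titles. limma 3.58.1 in R 4.3.3 was run on log2(signal + 1) for genes with a mean of at least 1 (16443), with 1 mean per group, an intensity trend, 4 residual and 3.25 prior degrees of freedom, two-sided tests and Benjamini-Hochberg adjustment over all genes tested. The pseudocount of 1 understates fold changes of low genes. The 7 contrasts were hepatectomy against sham in each genotype and averaged, Cre-positive against Cre-negative in each operation and averaged, and their interaction. The pipeline was tested on simulated data. The members, lists and tests were chosen with earlier results of these data known. Members were named if called, if among the 12 of highest signal, if the 4 sham and 4 hepatectomy libraries did not overlap, or as heavy chains Slc3a1 and Slc3a2; the other members described were named after their values were seen. From each list up to 4 called genes were named, or up to 2 of the highest signal. Alternatives were other pseudocounts, no filter, median-of-ratios scaling, quantile normalization, removal of the GC trend, no intensity trend, only the groups of a contrast, and leaving out each library. Promoter windows are from RefSeq, GRCm38.p6. Values of a few single genes are not reported here.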

Additional observations from a re-analysis of the deposited data

Results flagged for a closer look

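In Slc36a1, Slc6a6, Slc3a1 and Slc38a10, both Cre-negative hepatectomy libraries lay below, and both Cre-positive hepatectomy libraries above, the sham libraries of their genotype. The log2 difference of the hepatectomy response, Cre-positive minus Cre-negative, was 1.53 for Slc36a1, 1.57 for Slc6a6, 1.46 for Slc3a1 and 1.04 for Slc38a10. The difference was tested with limma and passed for none of them (adjusted p 0.455, 0.521, 0.584 and 0.596). Its sign was the same in all 15 alternatives run for each gene. These genes were picked for libraries that do not overlap, so most alternatives could not change the sign. That holds for leaving out a library and for other pseudocounts, no filter and no intensity trend. Only median-of-ratios scaling, quantile normalization and GC removal could have changed it. Among all tested genes 6.85% moved opposite ways without overlap in either genotype. Beside it, Kupffer cell and macrophage markers summed to 2340 and 1708 in Cre-negative hepatectomy and to 4060 and 4265 in Cre-positive hepatectomy. Hepatocyte markers summed to 182283 and 286312 against 387917 and 332646; without Serpina1c, listed at 0 in 2 libraries, the sums were 160300 and 247065 against 387917 and 243869 and overlapped. The part of these cells in these 4 genes was not tested.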

How the results depend on the processing

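No paired analysis was possible because the labels give no replicate numbers that tie libraries of different groups. With 2 libraries per group, the number of members called depended on single libraries. The number of all genes called under the same setting is given in parentheses. In the averaged hepatectomy test it was 3 (738), and 1 to 15 (140 to 5408) without each library in turn; the 15 came without Cre-positive hepatectomy replicate 1. It was 1 (405) with no filter on low signal and 6 (1153) with the GC trend removed. In Cre-negative livers it was 1 (183), then 0 with a pseudocount of 5 (212), with no filter (103), with median-of-ratios scaling (133) and with quantile normalization (79), 2 (519) with GC removal, and 0 to 8 (0 to 1698) without each library. In Cre-positive livers it was 1 (155), then 0 with a pseudocount of 5 (105), with no filter (7), with quantile normalization (99) and with only its own groups (0), 2 (313) with GC removal, and 0 to 9 (1 to 3507) without each library. Between genotypes after hepatectomy it was 0 (3), and 0 to 6 without each library, with 2217 genes called where it was 6; averaged over operations it was 0 (2), and 0 to 2, with 971 genes where it was 2. The isoform count was 6 of 813 isoforms called, then 3 of 598 with no filter and 0 to 22 without each library (0 to 4517). A lone library left in a group was taken to vary like the other groups. Of 317 recomputed values for single genes, over 21 results, 261 kept direction and side of the threshold, 37 no longer passed, 12 newly passed and 7 changed sign. The sign changes were in averaged responses near 0: Slc38a10 (0.10) at -0.043 with median-of-ratios scaling, -0.16 with GC removal and -0.094 without Cre-negative hepatectomy replicate 2 (-0.094 to 0.29 without each library); Slc3a1 (0.05) at -0.091 with median-of-ratios scaling, -0.13 without Cre-negative sham replicate 1, -0.10 without Cre-negative hepatectomy replicate 2 and -0.10 without Cre-positive hepatectomy replicate 2 (-0.13 to 0.22 without each library). The cause was not tested. The alternatives for isoforms, for Slc1a4 within genotypes, for the 4 genes that moved opposite ways for counts of libraries that do not overlap and for the hepatocyte marker sum were chosen after seeing the data.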
